A study of Mus musculus with 6 samples.

Results

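The Zfp zinc finger genes are the mouse genes whose platform symbol is Zfp followed by a number, with a trailing letter or an l form such as Zfp36l1 allowed and with Zfp42 left out. The array held 88 of them among 8251 genes, each represented by its brightest probe set, judged by the mean of the 6 arrays. Their transcripts were measured in wild-type mouse embryonic stem cells (3 arrays) and in HDAC1 knockout embryonic stem cells (3 arrays), pluripotent cells derived from embryos of 1 litter and given no treatment. The enzyme HDAC1 removes acetyl groups from histones as a subunit of corepressor complexes. The labels allow culture with leukemia inhibitory factor on gelatin or on feeder cells without it, and do not give the medium of a sample, the strain, the sex chromosomes or whether the arrays of a genotype came from separate lines. The sample titles call the 3 arrays of a genotype biological replicates but do not say what was repeated. P-values therefore rest on a spread between arrays that can be technical in part.

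Most Zfp genes encode proteins with arrays of C2H2 zinc fingers, short loops held by a zinc ion that together read a DNA sequence. Many of them, often in tandem clusters in the genome, also carry a KRAB box, which recruits the corepressor TRIM28 and with it the histone methyltransferase SETDB1, and in embryonic stem cells this machinery silences retroviral elements and protects imprinted loci. The symbol is historical, so the set also holds CCCH proteins that bind mRNA, ribosome-associated proteins and proteins with few fingers.

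The Hdac1 signal was 2323.4, 2199.7 and 2407.8 on the wild-type arrays and 118.3, 110.1 and 197.1 on the knockout arrays, which matches the labels. The background level was a signal of 116.4, the 95th percentile of the signals of 19 bacterial and yeast control probe sets. Of the marker lists, pluripotent stem cell markers included 4 of 9 genes that rose and 0 that fell, all 9 being above background. Feeder fibroblast markers included 5 of 23 that fell and 0 that rose, with a summed signal of 21400.3 to 21785.6 in wild-type and 16180.7 to 16729.6 in knockout cells. No fibroblast marker was listed at 0, and 3 of the 23, Lum, Postn and Pdgfrb, were at background in both genotypes. Primitive endoderm markers included 1 of 10 that rose, and by limma no trophoblast (0 of 5) or neural (0 of 6) marker was called, against 1 and 2 at an unadjusted p under 0.05. X-linked genes had a median log2 difference of 0.23 (n = 259) and autosomal genes -0.04 (n = 7971). The 3' to 5' signal ratio of beta-actin, a measure of RNA quality, was 1.152 to 1.21 in wild-type and 1.043 to 1.092 in knockout arrays. The same ratio of Gapdh was 0.797 to 0.809 in wild-type and 0.769 to 0.804 in knockout arrays, with overlap. The part that fibroblast RNA, sex chromosomes and RNA quality had in the results on the Zfp genes was not tested. In such bulk RNA, fewer cells of a type and less RNA per cell cannot be told apart.

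Loss of HDAC1 was accompanied by a call for few Zfp genes. With limma on log2(signal + 16) and Benjamini-Hochberg adjustment over all 12422 tested probe sets, 2 of the 88 genes fell at an adjusted p under 0.05, Zfp281 and Zfp639, and 0 rose. Among all genes, 1.88% fell and 2.7% rose by the same rule, so the count of falls lies near the background. At an unadjusted p under 0.05, 6 Zfp genes were lower, against 8.65% of all genes, and 0 were higher, against 8.45% of all genes. The median log2 difference of the 88 genes was -0.15, against -0.04 for all genes, and 59 of the 88 (67%) had a log2 difference below 0, against 54.7% of all genes. Log2 differences are knockout minus wild type throughout, and folds are taken from log2(signal + 16), which makes those of dim probe sets smaller than they are.

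**Figure D1:**
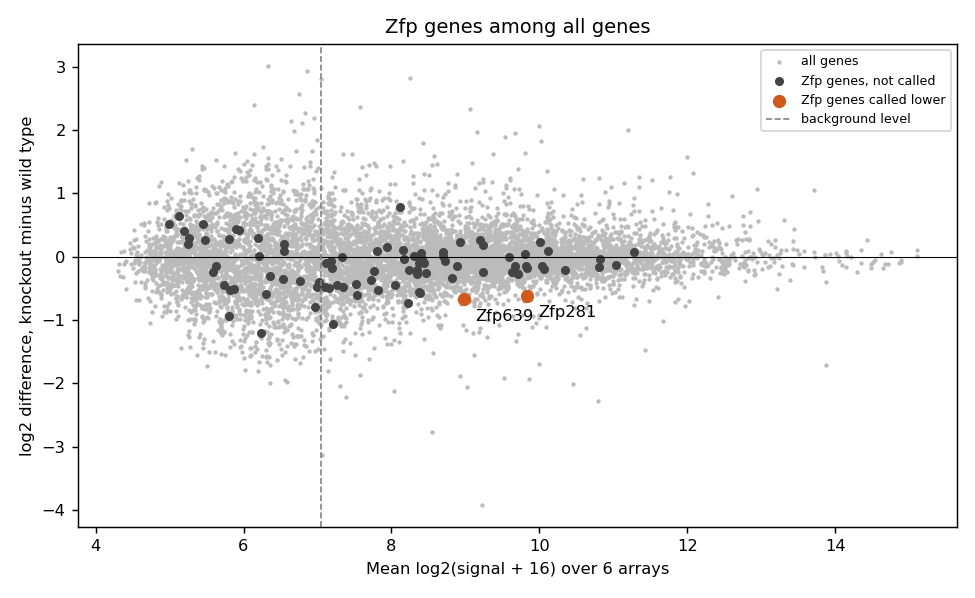
Log2 difference (knockout minus wild type) against mean log2(signal + 16) over 6 arrays for 8251 genes in grey and the 88 Zfp genes in black, with the 2 called genes in orange. The Zfp genes lie within the spread of all genes, and 59 of them lie below 0.

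The promoters of the 2 genes that fell, and of Zfp598, a gene with a log2 difference close to 0, are shown to set the sequence at the start of each called gene beside that of a gene with a tight bound on its difference. Each runs from 250 bases before to 50 after the start given by RefSeq on GRCm38.p6, on the plus strand, and capitals mark the GC box GGGCGG or its reverse complement CCGCCC, a binding sequence of the factor SP1. The windows are chr1:136624651-136624950 for Zfp281, chr3:32510342-32510641 for Zfp639 and chr17:24669437-24669736 for Zfp598.
Zfp281: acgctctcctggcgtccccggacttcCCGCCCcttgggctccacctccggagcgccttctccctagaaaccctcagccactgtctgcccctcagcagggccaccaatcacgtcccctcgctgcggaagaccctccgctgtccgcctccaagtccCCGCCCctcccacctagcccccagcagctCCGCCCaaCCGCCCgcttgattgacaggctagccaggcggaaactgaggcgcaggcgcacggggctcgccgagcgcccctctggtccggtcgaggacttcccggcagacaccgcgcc
Zfp639: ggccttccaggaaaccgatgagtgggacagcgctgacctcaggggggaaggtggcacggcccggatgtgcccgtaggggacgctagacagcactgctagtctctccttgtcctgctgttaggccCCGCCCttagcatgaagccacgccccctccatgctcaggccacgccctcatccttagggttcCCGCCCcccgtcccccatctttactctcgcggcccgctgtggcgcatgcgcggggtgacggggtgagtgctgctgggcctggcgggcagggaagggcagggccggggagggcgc
Zfp598: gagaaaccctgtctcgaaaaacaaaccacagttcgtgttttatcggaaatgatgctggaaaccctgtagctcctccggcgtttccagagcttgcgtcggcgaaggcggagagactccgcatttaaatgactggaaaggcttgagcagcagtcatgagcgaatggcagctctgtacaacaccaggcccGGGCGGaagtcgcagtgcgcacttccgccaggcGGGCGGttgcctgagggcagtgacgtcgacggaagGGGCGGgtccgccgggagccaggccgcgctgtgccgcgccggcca
The Zfp281 window held 4 GC boxes and 27 CpG dinucleotides, the Zfp639 window 2 and 21, and the Zfp598 window 3 and 29. Promoter windows were found for 72 of the 88 genes (93 windows), and 52.7% of these held a GC box on either strand, against 57% of 8409 windows of genes on the array and 35.7% of all 32851 windows of the table. The median window of the Zfp genes held 18 CpG dinucleotides, as did the median window of the genes on the array. A match is a description of letters and does not show that a factor binds there.

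Zfp281 encodes a C2H2 transcription factor of embryonic stem cells that is known to restrain Nanog transcription with the NuRD deacetylase complex. Its signal was 1046.0, 1238.7 and 1065.4 on the wild-type arrays and 757.7, 772.4 and 642.7 on the knockout arrays. Every knockout array was below every wild-type array. The mean fell 1.53-fold, from 1116.7 ± 106.1 (SD, n = 3) to 724.3 ± 71.0 (SD, n = 3), with a log2 difference of -0.61 ± 0.12 (SE) and an adjusted p of 0.0182 by limma. The call was lost without wild type replicate 2 (adjusted p = 0.0733), without HDAC1 knockout replicate 2 (0.0501) and without HDAC1 knockout replicate 3 (0.0782), and with eBayes without a trend (0.177). Over all 22 other settings the log2 difference stayed between -0.66 and -0.53.

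Zfp639, also called ZASC1, encodes a C2H2 zinc finger protein. Its signal was 535.1, 679.5 and 666.0 in wild-type and 391.0, 418.3 and 350.8 in knockout cells. The groups did not overlap. The mean fell 1.59-fold, from 626.9 ± 79.8 to 386.7 ± 34.0 (SD, n = 3 each), with a log2 difference of -0.67 ± 0.16 (SE) and an adjusted p of 0.0424 by limma. This call lay close to the threshold and held in 14 of 22 other settings. Among those 14 are the use of current gene symbols and the count over members above background only. Both leave the fit of the gene as it was, so they could not change the call. The call was lost when any single array other than wild type replicate 1 was left out (adjusted p = 0.146 without wild type replicate 2, 0.111 without wild type replicate 3, and 0.111, 0.0904 and 0.15 without HDAC1 knockout replicates 1, 2 and 3). It was also lost with median centring (0.0722), with the replicate number as a block (0.0981) and with eBayes without a trend (0.167). Both called genes had a single probe set, so no second probe set could be set beside either.

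**Figure D2:**
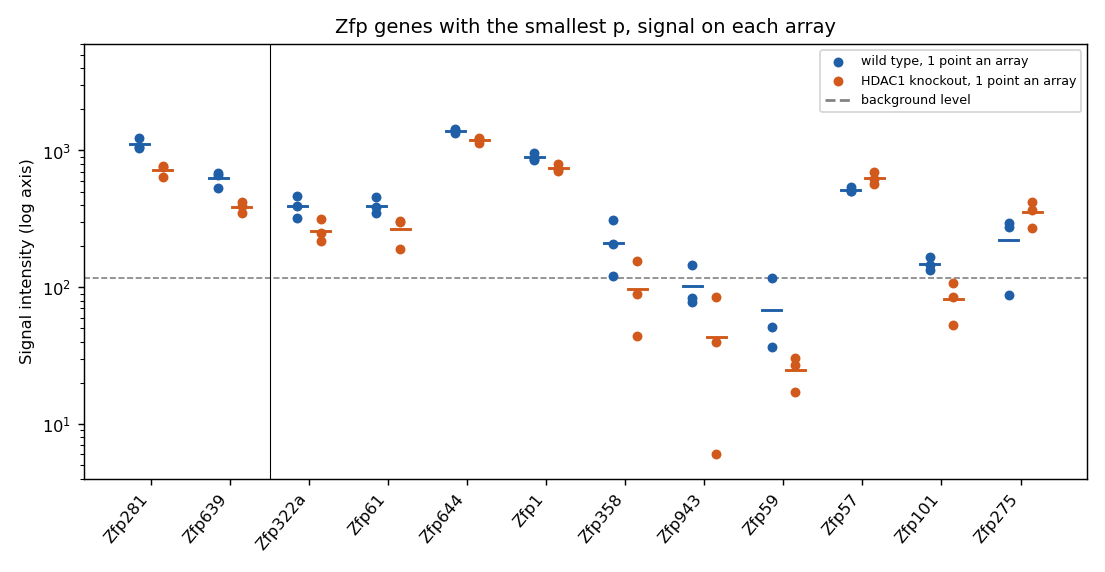
Signal intensity on each array (log axis) for the 2 called Zfp genes, left of the vertical line, and the 10 uncalled ones with the smallest p; points are arrays, short bars are group means and the dashed line is the background level of 116.4. Wild-type and knockout points are separate for Zfp281 and Zfp639 and overlap for Zfp358, Zfp943 and Zfp275.

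Factors with known roles in chromatin and imprinting were set beside Zfp281, in a group of 6 chosen after the values had been seen. In this group 1 gene, Zfp281, was called lower by limma, against 1.88% of all genes. An unadjusted p under 0.05 was found for 3 of the 6, against 17.1% of all genes. For 3 of the 6 every knockout array was below every wild-type array, against 12.1% of all genes. Since the group was chosen with the values known, no weight is put on these counts. Zfp57, a KRAB protein that maintains DNA methylation at imprinting control regions, had signals of 536.5, 506.9 and 504.2 in wild-type and 568.9, 695.2 and 620.6 in knockout cells. Of the Zfp genes not at background in both genotypes, it was the one whose knockout arrays were all higher than its wild-type arrays. Its log2 difference was 0.27 ± 0.13 (SE), with a 95% interval of -0.03 to 0.57, and it missed the threshold (adjusted p = 0.379 by limma).

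Zfp568, a KRAB repressor of a placental Igf2 transcript in the mouse, had signals of 1062.1, 1029.6 and 739.9 in wild-type and 1020.7, 1243.2 and 1037.1 in knockout cells. The groups overlapped, and the log2 difference of 0.23 had a 95% interval of -0.10 to 0.56. Zfp322a, a factor of embryonic stem cells, had signals of 468.4, 390.1 and 318.3 in wild-type and 313.9, 249.3 and 216.5 in knockout cells. These did not overlap, by a margin of a few signal units between wild type replicate 3 and HDAC1 knockout replicate 1, and the log2 difference of -0.56 ± 0.23 (SE) was not called (adjusted p = 0.259 by limma). Zfp644, a partner of the histone methyltransferases G9a and GLP, had 1338.6, 1408.1 and 1427.4 in wild-type and 1241.2, 1135.4 and 1215.7 in knockout cells, without overlap. Its log2 difference was -0.21, with a 95% interval of -0.41 to -0.01, and was not called (adjusted p = 0.285 by limma). Zfp148 had a log2 difference of -0.22 with overlapping groups and an interval of -0.86 to 0.41.

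The second role group, of 9 RNA and translation factors also chosen after the values had been seen, had 0 members called by limma, and 0 at an unadjusted p under 0.05. Among all genes 1.88% fell, 2.7% rose and 17.1% had an unadjusted p under 0.05, so counts of 0 in 9 genes say little. The log2 differences of the group ran from -0.73 to 0.19 with a median of -0.14. The CCCH genes encode proteins that bind AU-rich elements of mRNAs and recruit the deadenylase complex. Zfp36, which encodes tristetraprolin, had signals of 395.8, 255.6 and 493.9 in wild-type and 83.1, 358.8 and 323.5 in knockout cells. A single array, HDAC1 knockout replicate 1, lay at background. The log2 difference of -0.73 ± 0.46 (SE) was -0.11 without that array, and was not called with any array left out (adjusted p from 0.422 to 0.933 by limma).

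Zfp36l1 had 901.6, 856.7 and 765.9 in wild-type and 704.6, 757.0 and 803.3 in knockout cells, and a log2 difference of -0.15 (95% interval -0.41 to 0.11). Zfp36l2 had 984.9, 1037.6 and 783.6 in wild-type and 924.9, 732.7 and 871.3 in knockout cells, and a log2 difference of -0.14 (-0.45 to 0.16). Both pairs of groups overlapped. With single arrays left out, the log2 difference ran from -0.22 to -0.10 for Zfp36l1 and from -0.26 to -0.05 for Zfp36l2. Of 14 measured partners of these proteins in mRNA decay, 0 were called by limma and 1 had an unadjusted p under 0.05, against 17.1% of all genes, with a median log2 difference of -0.08.

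Zfp598 encodes a ubiquitin ligase that marks collided ribosomes, and its signal was 1919.5, 1759.2 and 1785.7 in wild-type and 1645.0, 1855.0 and 1809.1 in knockout cells. This gave the narrowest bound among the 88 genes, a log2 difference of -0.04 with a 95% interval of -0.24 to 0.15, of opposite sign after median centring (0.04) and without HDAC1 knockout replicate 1 (0.01). Zfp622, a ribosome assembly factor, had a log2 difference of -0.01 with an interval of -0.27 to 0.25. Zfp106, Zfp326, Zfp385a and Zfp638, which encode RNA-binding proteins, had log2 differences of -0.19, 0.11, -0.27 and 0.19 with overlapping groups.

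The 5 genes with the highest mean signal were Zfp982, Zfp207, Zfp94, Zfp598 and Zfp644. Of these 0 were called, while 188 of 2963 genes with a mean signal of 500 or more rose and 126 fell. Brightness depends on the probes as well as the transcript, so the order of the 5 is not one of transcript levels. Zfp207 encodes a spindle and checkpoint protein, and had signals of 2166.0, 2458.7 and 1925.2 in wild-type and 1910.7, 2035.8 and 1987.2 in knockout cells. The groups overlapped, with a log2 difference of -0.13 (95% interval -0.36 to 0.09) that was -0.05 without wild type replicate 2 and -0.22 without wild type replicate 3. Zfp982 had 2969.4, 2843.5 and 1630.8 in wild-type and 2335.7, 2526.7 and 2739.7 in knockout cells. Wild type replicate 3 was the lowest of its 6 arrays, and the log2 difference of 0.08 was -0.20 without it. Zfp94 had 1934.4, 1411.9 and 2425.3 in wild-type and 2045.5, 2110.1 and 1077.9 in knockout cells, the largest standard error of the 5, with an interval of -0.73 to 0.39 around a log2 difference of -0.17. The sign turned without HDAC1 knockout replicate 3 (0.14) and without wild type replicate 3 (0.02). This probe set of Zfp94 is of a type that the manufacturer marks as relaxed in design. The other probe set of Zfp94, a plain one, was at background on all 6 arrays, with a mean signal of 69.6. The probe set of Zfp982 is of a type marked as shared, so its signal can include that of family members.

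Further genes with a small p were not called by limma. Zfp61 had signals of 386.0, 347.0 and 454.2 in wild-type and 189.3, 298.5 and 307.5 in knockout cells, without overlap (log2 difference -0.57, adjusted p = 0.273). HDAC1 knockout replicate 1 was the lowest, and without it the log2 difference was -0.36. Zfp1 had 864.9, 953.7 and 850.3 in wild-type and 707.8, 793.5 and 727.9 in knockout cells, also without overlap (log2 difference -0.25, adjusted p = 0.306). Zfp101 had 134.3, 145.2 and 166.9 on the wild-type arrays, while all 3 knockout arrays lay at background, at least 1.24-fold lower (adjusted p = 0.384).

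For Zfp358 the signals were 206.9, 309.5 and 120.6 in wild-type and 156.8, 89.3 and 43.7 in knockout cells, with overlap and 2 of 3 knockout arrays at background. Its log2 difference of -1.06 ran from -1.44 to -0.67 with single arrays left out. Zfp943 and Zfp59 were at background in both genotypes, so no fold is given for them, and both had 2 of 3 wild-type and 3 of 3 knockout arrays at or under that level. In all, 12 of the 88 genes (13.6%) had every knockout array below every wild-type array, against 12.1% of all genes. The reverse held for 2 genes (2.27%), Zfp57 and, at background in both genotypes, Zfp90, against 10.3% of all genes.

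Of the 88 genes, 61 had a mean over the 6 arrays above the background level. The 2 called genes are 3.28% of the 61, while 2.64% of the 5684 genes of the array with such a mean fell and 3.84% rose. Of the 61, 46 (75.4%) had a log2 difference below 0, against 53.9% of those 5684 genes, and the median was -0.17 against -0.03. Groups were separate with the knockout lower for 7 of the 61 (11.5%), against 14% of the 5684, and with the knockout higher for 1 (1.64%), against 12.8%. Counted by genotype, 25 of the 88 genes were at background in both, and 11 of these had a log2 difference below 0. A further 6, Zfp358, Zfp101, Zfp2, Zfp30, Zfp653 and Zfp62, had a group mean above background in wild-type cells only and 0 in knockout cells only. The share of all genes with such a pattern was not counted, so no weight is put on these counts. Of the 6, only Zfp101 had all 3 knockout arrays at background. Zfp653 had knockout signals of 48.0, 136.0 and 160.5, with a mean of 114.8 close to the level. For the 22 Zfp genes with a mean signal of 500 or more the median was -0.15, against -0.01 for 2963 such genes of the array. These shares describe the list, and no test of the list as a whole was made.

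By array, the median deviation of the 88 genes from their own mean over the 6 arrays was 0.12, 0.02 and 0.03 log2 units in wild-type replicates 1, 2 and 3 and -0.10, -0.01 and -0.06 in knockout replicates 1, 2 and 3. Over all genes the same deviations were 0.02, 0.02 and 0.02 in wild-type and -0.01, -0.01 and -0.01 in knockout cells. The farthest arrays were wild type replicate 1 and HDAC1 knockout replicate 1, and the median log2 difference of the Zfp genes was -0.10 without the first and -0.12 without the second.

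The Zfp genes lie on 19 chromosomes, 19 of them on chromosome 7 and 16 on chromosome 17. No gene of chromosome 7 or 17 was called by limma, and 1 and 0 had an unadjusted p under 0.05. Among all genes 1.88% fell, 2.7% rose and 17.1% had an unadjusted p under 0.05. At such shares of calls, 0 in 19 or 16 genes lies near the background. The median log2 difference was -0.17 on chromosome 7, -0.15 on chromosome 17 and -0.16 over the 50 genes of the other chromosomes apart from X, where both called genes lie. A gene was counted as clustered when at least 2 of its 6 nearest protein-coding neighbours in the RefSeq order, 3 on each side, also had a Zfp symbol. Of 35 clustered genes 24 had a log2 difference below 0 (median -0.17), and of 53 single genes 35 did (median -0.14). Both called genes were single ones. Among the 35 clustered genes 0 were called and 1, Zfp61, had an unadjusted p under 0.05, against the same shares of all genes.

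**Figure D3:**
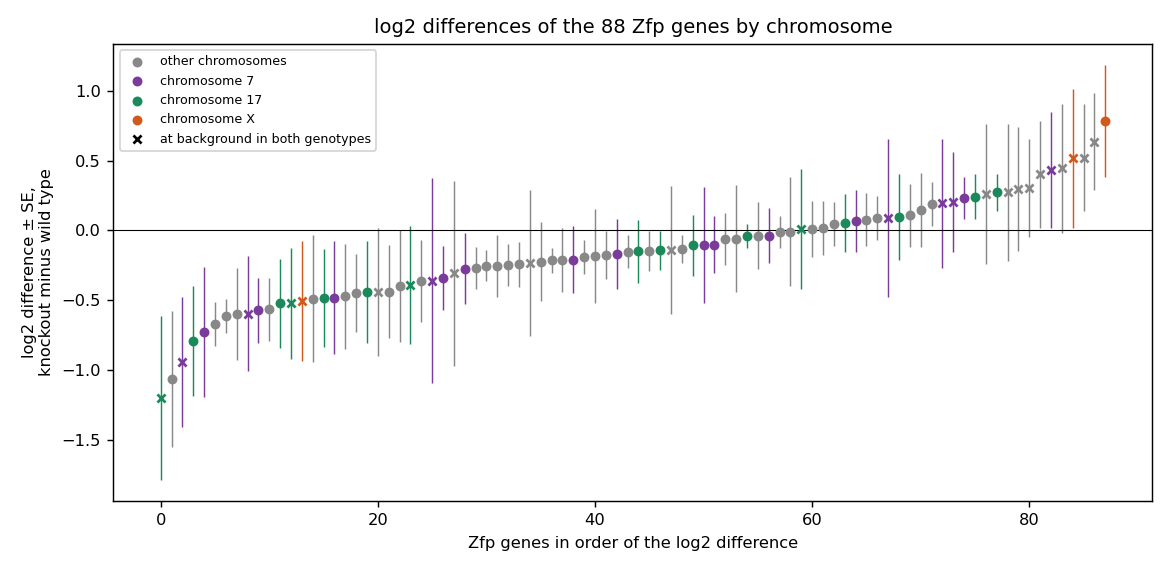
Log2 difference ± SE (knockout minus wild type, n = 3 arrays a genotype) of the 88 Zfp genes in rising order, coloured by chromosome, with crosses for genes at background in both genotypes. Genes of chromosomes 7 and 17 are spread along the order, with highest values of 0.43 and 0.27, beside 0.78 over all 88 genes. Of the 3 X-linked genes 2 lie near the top and 1 near the bottom.

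The X chromosome held 3 Zfp genes, 0 of them called by limma or at an unadjusted p under 0.05, while 52 of 259 X-linked genes rose and 6 fell. Zfp275 had signals of 277.5, 296.7 and 87.4 in wild-type and 367.1, 423.1 and 272.5 in knockout cells. The groups overlapped through HDAC1 knockout replicate 3, and wild type replicate 3 was at background. Its log2 difference of 0.78 ± 0.40 (SE), the highest of the 88, was 0.27 without wild type replicate 3. Zfp92 and Zfp185, which encodes a LIM domain protein rather than a C2H2 protein, were at background in both genotypes.

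Other probe sets could be set beside the brightest one for 22 Zfp genes. These 27 other probe sets had 0 calls by limma, and 17 of them were at background in both genotypes. Of the 10 above background, 3 had a sign opposite to that of the brightest probe set, those of Zfp292, Zfp574 and Zfp930, each with a log2 difference within 0.2 of 0 on both probe sets. The second probe set of Zfp1 had means of 807.7 and 656.5 and a log2 difference of -0.30, beside -0.25 on the first. For 15 of the 88 genes the brightest probe set was of a type that the manufacturer marks as shared, incomplete or relaxed in design. For those marked as shared, signal from near-identical family members cannot be told apart, and which transcripts the others measure is less certain. Neither called gene is among the 15.

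**Figure D4:**
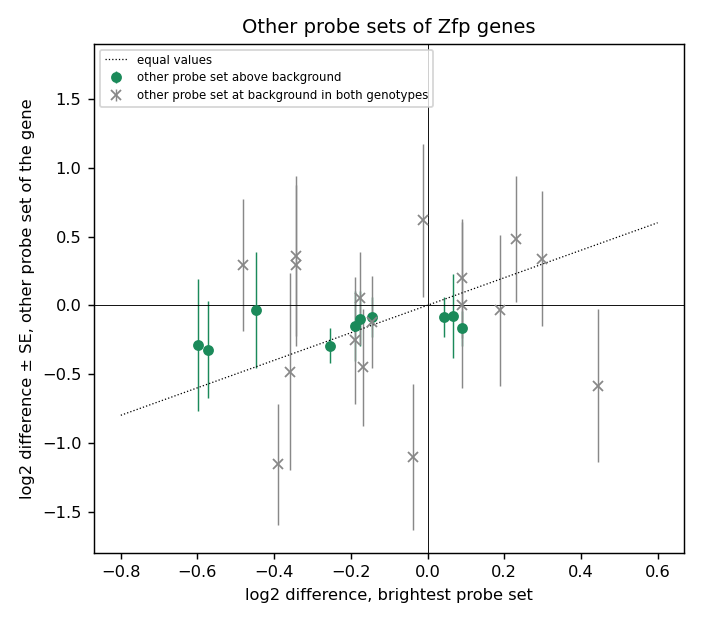
Log2 difference ± SE of each of the 27 other probe sets against that of the brightest probe set of the same gene. Filled points, above background, lie between -0.4 and 0 on the vertical axis, and crosses, at background in both genotypes, scatter on both sides of 0.

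Among the corepressors and chromatin proteins that work with KRAB zinc finger proteins, 22 of 35 listed genes were measured, 0 were called by limma and 6 had an unadjusted p under 0.05, against 17.1% of all genes in either direction. Their median log2 difference was 0.00, and 11 were below 0. Of the 6, Hdac2, Uhrf1 and Rbbp7 were higher in knockout cells and Daxx, Rbbp4 and Suv39h2 were lower. Hdac2 had the smallest p of the 22 (log2 difference 0.45, adjusted p = 0.0636 by limma). Trim28, the corepressor itself, had a mean signal of 24743 without and 25509 with the knockout (log2 difference 0.04, adjusted p = 0.904 by limma). For Setdb1 the means were 1077.9 and 959.8 (log2 difference -0.21, adjusted p = 0.677 by limma). Its signals were 1068.2, 1095.4 and 1070.0 in wild-type and 762.1, 785.5 and 1331.8 in knockout cells, so the knockout arrays lay on both sides of the wild-type ones. A p that misses the threshold does not show that these transcripts were equal.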

How the data were processed

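Biotin-labelled RNA of 6 samples was hybridised to Affymetrix MG U74Av2 arrays, 1 a sample. The deposited values are linear signal intensities per probe set, made with MAS5 per the submitters' processing notes. Its version is not given in the sources used here, and no detection calls were used. The 2% trimmed mean was 500.3 on all 6 arrays, so they had been scaled to a common level, which hides any shift shared by all transcripts. Values were used as deposited. The experiment headers of the 6 arrays were identical and show no batch.

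Of 12488 probe sets, 66 controls were left out and 12422 tested in limma 3.58.1 (R 4.3.3) on log2(signal + 16) (eBayes with a trend, no covariates), adjusted by Benjamini-Hochberg over all of them. Names came from the platform annotation (10833 probe sets with 1 symbol, 396 with several, 1193 with none), and 10817 matched RefSeq GRCm38.p6 by identifier, which gave chromosomes and promoters. Probe sets with several symbols name no gene, including 6 that hold a Zfp symbol. Zfp36l1 and Zfp36l2 were counted as members. Without them there are 86. A group mean, or all 3 of its arrays, at or under the background level makes a fold a lower bound ("at least"), with arrays under it set to that level, and no fold is given where both groups are.

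The members and lists were chosen with earlier results of these data known. Named were called members, the 10 uncalled with the smallest p, the 5 brightest, the CCCH genes, X-linked members and Zfp57, and Hdac1, Trim28 and Setdb1; other genes were chosen after their values were seen. Grouping by protein domain had been planned, but no protein table was used here, so genes were grouped by chromosome, neighbours and known role. Errors are SDs over 3 arrays or limma's SEs. The number of arrays limits the precision. The scripts were tested on simulated data. Arrays with the same replicate number did not deviate together (correlations of -0.053, -0.012 and -0.083).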

Additional observations from a re-analysis of the deposited data

How the results depend on the processing

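The counts of called Zfp genes and their median log2 difference were recomputed in 22 other settings, of which 1, the use of plain probe sets, was chosen after seeing the data. The named Zfp genes were recomputed in 19 to 22 of these, since some settings leave a gene out. Counts of separate groups, chromosome and role groups, partner lists and promoter shares were not recomputed. No setting called a Zfp gene higher. The settings with current gene symbols and with only members above background leave the fit of each gene as it was, so they could not change a call. The count of genes called lower was 2 in 14 settings, 1 with median centring, 1 with the replicate number as a block and 0 with eBayes without a trend, and 0 to 2 when single arrays were left out. The replicate block had Zfp281 as its 1 call, but the labels do not say that the numbers pair the samples. The median log2 difference of the Zfp genes was -0.074 with median centring, where that of all genes was 0.04, -0.17 to -0.10 with single arrays left out, and -0.18 to -0.14 in the remaining settings, so it was below 0 in all of them. Among the 21 named Zfp genes no uncalled one became called. The sign turned for Zfp598 with median centring (0.036), and with single arrays left out for Zfp598 (-0.077 to 0.0092), Zfp94 (-0.37 to 0.14) and Zfp982 (-0.20 to 0.23), all uncalled. Median centring moves the log2 differences of all genes by the same amount, that of Zfp598 included. The cause of the turns with arrays left out was not tested. For the 25 genes at background in both genotypes the standard errors ran from 0.35 to 0.73 log2 units, which limits what can be said of them.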
